A study of Homo sapiens with 6 samples.

Results

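The kinesin superfamily was followed here in U-2 OS cells, a human osteosarcoma line, 24 h after 4 Gy of ionizing radiation (IR). Members were all protein-coding genes with a symbol of the form KIF or KIFC, a number and at most a letter, in the GENCODE annotation, which gave 42 of the 21447 genes in the data. KIFBP and KIFAP3, which bind kinesins but are not motors, were left out. The members were sorted by their known work in the cell into 15 mitotic kinesins, 17 transport kinesins and 10 others, the last mostly motors of cilia and of Hedgehog signalling.

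Kinesins are motor proteins that use ATP to walk along microtubules or to shorten them. The mitotic kinesins build the spindle, move and align chromosomes, and then organize the midzone and midbody through which a dividing cell separates. Many of their genes are transcribed most strongly in G2 and mitosis. The transport kinesins carry vesicles, mitochondria, endosomes and other cargo in cells whether or not they divide.

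Bulk RNA-seq was performed on 6 libraries of U-2 OS cells that were not synchronized, 3 left untreated and 3 exposed to IR. The labels give no genotype beyond the cell line, and both groups shared the same medium with serum and antibiotics. The study's text calls the replicates independent samples, but neither it nor the labels say whether they were separate cultures, so the p-values measure the spread between these libraries. The comparison asks how the abundance of RNA differed after IR-induced DNA damage.

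The libraries held 18573309 to 22953834 estimated counts, apart from IR replicate 3 with 45308792. The deposited table of IR replicate 3 carries a mark that reads as a repeat, and whether that library was made or sequenced again is not given in the sources used here. IR replicate 3 also differed more from IR replicates 1 and 2 than any other pair of the same group did (chi-square per gene 29.1 and 32.2 against at most 9.15, a measure that grows with depth), so counts without it are given below. Of the osteosarcoma markers, COL1A1 was present at 2683 to 3509 CPM (read counts scaled to the size of the library), SPARC at 1609 to 1694 and VIM at 1465 to 1793. RUNX2 was lower, at 11.3 to 16.1 CPM, and ALPL was scarce at 1.70 to 4.95 CPM. COL1A2, which osteoblasts express with COL1A1, was near 0 at 0.977 to 2.14 CPM. ALPL and COL1A2 thus lay below the epithelial marker EPCAM, at 8.55 to 10.6 CPM. The markers of other cell types (EPCAM, CDH1, PTPRC and PECAM1) stayed between 0.109 and 10.6 CPM. Of 6 osteosarcoma markers tested, ALPL was called higher and RUNX2 lower after IR, and of 3 other markers tested CDH1 was called higher. Among all tested genes, 14.5% were called lower and 15.5% higher. CDH1 was called in 0 of the 6 fits that each left out 1 library (adjusted p up to 0.134) and RUNX2 in 2 (up to 0.079).

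Mitotic kinesins were lower after IR without exception among those with enough reads to test, whereas transport kinesins went both ways. Of the 42 members, 37 had enough reads for the edgeR quasi-likelihood test, which was run on all 14323 tested genes together with Benjamini-Hochberg adjustment and an adjusted p threshold of 0.05. After IR, 21 of the 37 were called lower and 5 higher, where 14.5% of all tested genes were called lower and 15.5% higher. All 13 tested mitotic kinesins were called lower, with a median log2 fold change of -0.40 and a range from -0.86 to -0.22. Of the 17 transport kinesins, 6 were called lower and 4 higher, with a median of -0.10, and of the 7 other kinesins tested 2 were lower and 1 higher. The median over all tested genes was 0.01. In bulk RNA, fewer cells of a type and less RNA per cell cannot be told apart.

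Without IR replicate 3, the counts were again 21 lower and 5 higher, with 13 of 13 mitotic kinesins lower. In that fit, 1986 of 14495 tested genes were called lower and 1796 higher. Counted by overlap instead of by the test, every IR library was below every untreated library for 13 of 13 mitotic kinesins, for 7 of 17 transport kinesins and for 2 of 7 others, a pattern that 23.3% of all tested genes showed. The opposite arrangement, with every IR library above, held for no mitotic kinesin, 5 transport kinesins and 1 other, and for 23.8% of all tested genes. The median mitotic kinesin stood at -0.39, -0.35 and -0.47 log2 units relative to the untreated mean in IR replicates 1, 2 and 3. The median transport kinesin stood at -0.04, -0.05 and -0.13 in the same libraries.

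**Figure D1:**
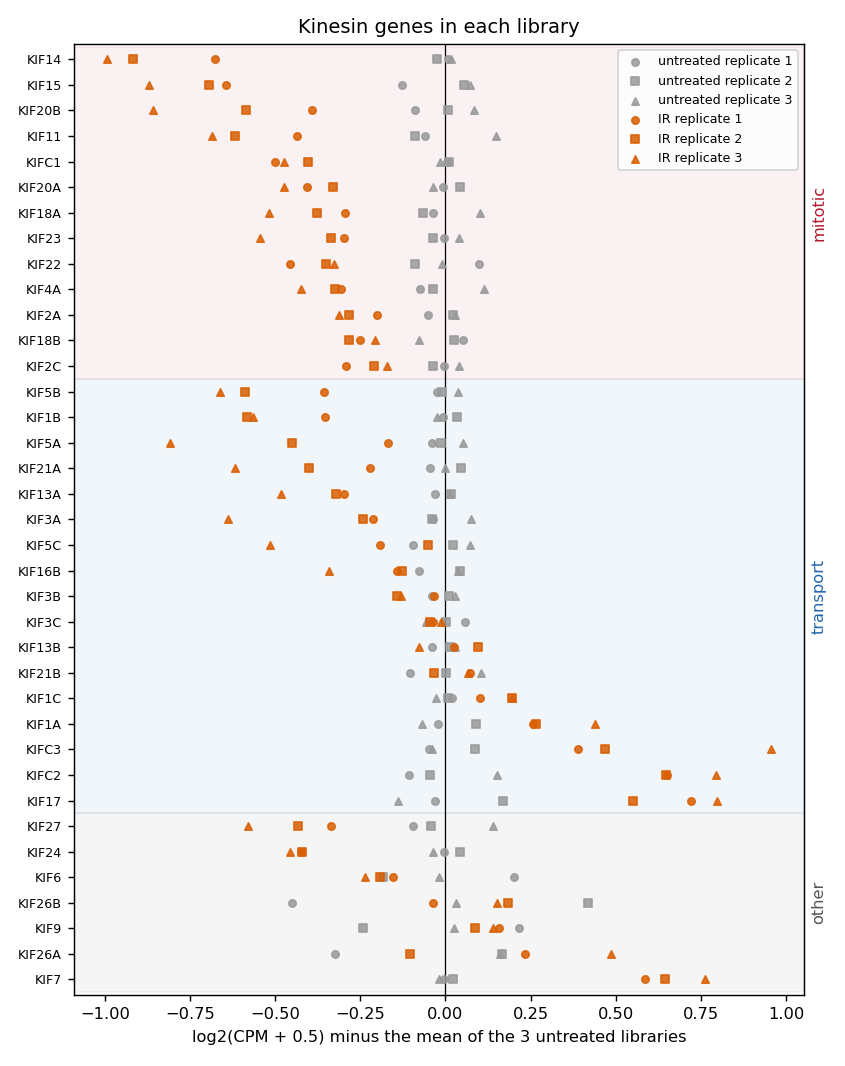
Each row is 1 of the 37 tested kinesin genes, grouped as mitotic, transport or other, and each point is 1 library, plotted as log2(CPM + 0.5) minus the mean of the 3 untreated libraries on the x axis. The orange IR points lie left of the grey untreated points for all 13 mitotic kinesins, while the 17 transport kinesins spread from left to right, with 7 wholly lower, 5 wholly higher and 5 overlapping.

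Levels between genes were compared per length, as TPM, which scales counts to transcript length and library size. The mitotic kinesins together gave 859, 847 and 869 TPM in the untreated libraries and 650, 612 and 624 TPM after IR, that is 858 ± 11.2 against 629 ± 19.4 (SD, n = 3). The transport kinesins summed to 534 ± 26.6 TPM untreated and 473 ± 36.9 TPM after IR, and the others to 40.2 ± 1.28 and 38.6 ± 4.25 TPM. The groups did not overlap for the mitotic and transport sums, and did overlap for the sum of the others. KIF5B and KIF23 were the most abundant kinesins of untreated cells, at 171 ± 7.63 and 165 ± 6.3 TPM, which lie within each other's spread. KIF2C followed at 130 ± 6.64 TPM, and then KIF1C and KIF2A at 81.4 ± 4.65 and 79.0 ± 3.47 TPM, again within each other's spread. The tested mitotic kinesins covered a narrow range, from KIF14 at 29.97 ± 0.794 TPM upwards, whereas the transport kinesins reached down to KIF21B at 1.37 ± 0.0914 TPM and the others to KIF26B at 0.135 ± 0.0776 TPM.

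**Figure D2:**
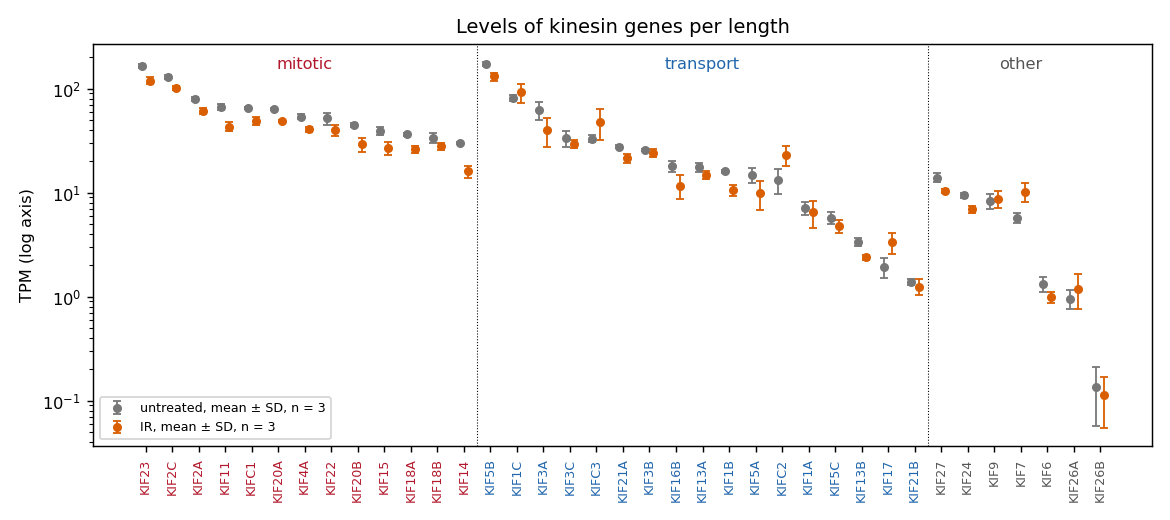
Mean TPM of the 37 tested kinesins on a log axis, untreated in grey and IR in orange, with bars for the SD over 3 libraries and genes ordered within each role by their untreated level. KIF23 leads the mitotic kinesins at 165 TPM and KIF5B the transport kinesins at 171 TPM, and most of the other kinesins lie below 10 TPM.

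The remaining 5 members could not be tested. KIF2B, a spindle microtubule depolymerase, and KIF12 had 0 counts in all libraries. KIF4B, an intronless near-copy of KIF4A, had at most 6 counts in a library, KIF19 at most 14 and KIF25 at most 6.

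The promoters of the mitotic kinesins were examined because these genes moved together. RefSeq promoter windows (build GRCh38.p14, 250 bases before to 50 bases after the transcription start) were found for 34 of the 42 members, including all 15 mitotic ones, but not for KIF5A, KIF13B, KIF19, KIF21B, KIF26B, KIF27, KIFC2 and KIFC3. Both strands were searched for the letters of the cell cycle genes homology region (CHR), an element common in genes transcribed late in the cell cycle (TTTGAA as the usual form and TTTAAA as a known variant), and for the letters CCAAT of the box that NF-Y binds. The searches were separate, so matches could share bases. The 110 bases before the start of 6 mitotic kinesins are shown first, as examples of where the letters lay, with matches of either kind in capitals. KIF15 holds CHR letters but no CCAAT letters.
KIF11, chr10:92593020-92593129, plus strand: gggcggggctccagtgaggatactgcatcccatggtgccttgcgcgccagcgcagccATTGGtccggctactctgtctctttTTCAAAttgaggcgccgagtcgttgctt
KIF15, chr3:44761684-44761793, plus strand: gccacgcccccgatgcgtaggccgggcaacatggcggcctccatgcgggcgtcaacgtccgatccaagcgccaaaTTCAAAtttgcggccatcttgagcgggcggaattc
KIF18A, chr11:28108157-28108266, minus strand: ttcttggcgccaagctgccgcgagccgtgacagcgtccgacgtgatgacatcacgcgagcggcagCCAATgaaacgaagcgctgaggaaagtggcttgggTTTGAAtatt
KIF20A, chr5:138179002-138179111, plus strand: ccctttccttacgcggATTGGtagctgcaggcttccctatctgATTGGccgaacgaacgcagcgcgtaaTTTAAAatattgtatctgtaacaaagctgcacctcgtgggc
KIF23, chr15:69414239-69414348, plus strand: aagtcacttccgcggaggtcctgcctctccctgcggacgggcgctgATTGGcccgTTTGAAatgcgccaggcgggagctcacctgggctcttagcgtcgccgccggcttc
KIF4A, chrX:70289994-70290103, plus strand: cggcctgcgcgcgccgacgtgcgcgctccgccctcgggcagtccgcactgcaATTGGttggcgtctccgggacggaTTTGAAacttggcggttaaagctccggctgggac
For contrast, the same stretch follows for KIF5B, the most abundant transport kinesin, which fell, for KIF1C, which was not called, and for KIF17, which rose. KIF5B does hold CHR letters 140 bases before its start, outside the stretch shown.
KIF5B, chr10:32056426-32056535, minus strand: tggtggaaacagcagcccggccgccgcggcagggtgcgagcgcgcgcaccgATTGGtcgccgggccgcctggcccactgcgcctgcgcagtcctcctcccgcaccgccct
KIF1C, chr17:4997840-4997949, plus strand: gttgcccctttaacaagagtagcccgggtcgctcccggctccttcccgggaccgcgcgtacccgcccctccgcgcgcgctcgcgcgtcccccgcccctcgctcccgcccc
KIF17, chr1:20718008-20718117, minus strand: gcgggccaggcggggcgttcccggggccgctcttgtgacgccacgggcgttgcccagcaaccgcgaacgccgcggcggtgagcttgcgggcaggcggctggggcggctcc

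CHR letters were found in the 300-base windows of 12 of 15 mitotic kinesins, 2 of 12 transport kinesins (KIF5B and KIF16B) and 0 of 7 others, compared with 27.9% of all 27305 genes that have a window. Within 60 bases before to 50 bases after the start they were found in the same number of mitotic kinesins, 12 of 15, in no transport or other kinesin, and in 10.2% of all genes. KIF2A, KIF2B and KIF22 were the mitotic kinesins without them. Of the 13 tested mitotic kinesins, all called lower, 11 held CHR letters, and KIF22 (log2 fold change -0.38) and KIF2A (-0.27) did not. KIF1B (-0.50), KIF24 (-0.44), KIF21A (-0.41), KIF13A (-0.37) and KIF3A (-0.36) were also called lower without CHR letters in their windows. KIF5B was called lower with them, and KIF16B was not called. Whether the letters bear on the change was not tested. CCAAT letters were found in 11 of 15 mitotic, 4 of 12 transport and 3 of 7 other kinesins, and in 39.7% of all genes. Both were present in 10 mitotic kinesins, 1 transport kinesin and no other, against 12.7% of all genes. In the windows shown, the first base of the CHR letters lay 28 bases before the start in KIF11, 34 in KIF4A, 35 in KIF15, 41 in KIF20A, 55 in KIF23 and 10 in KIF18A. These are letter matches in a fixed window, and no factor binding was measured.

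**Figure D3:**
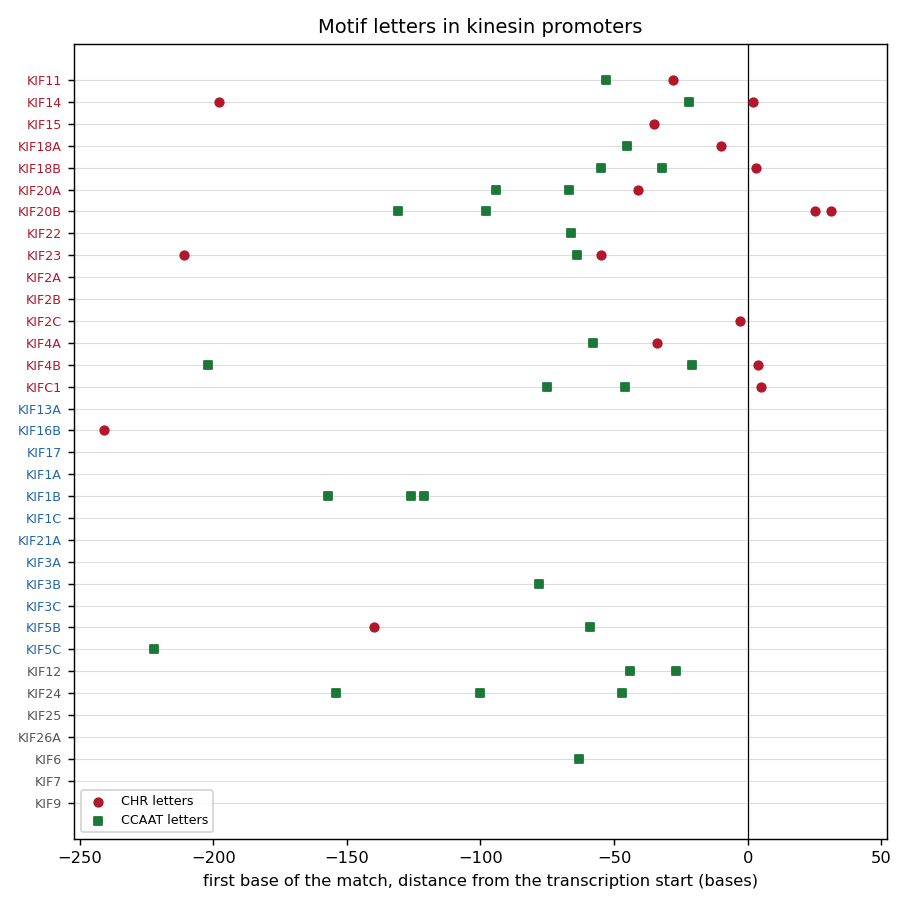
Each row is 1 of the 34 kinesin genes with a RefSeq promoter window, mitotic in red, transport in blue and other in grey text, and each mark is the first base of a match, at its distance in bases from the transcription start. The CHR letters (circles) cluster close to the start in 12 of 15 mitotic kinesins, and the 2 transport kinesins with them have them farther upstream.

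Among the mitotic kinesins, the largest fall was of KIF14, followed by KIF15. KIF14 (ENSG00000118193, GRCh38 chr1:200551497-200620751, minus strand) acts at the midbody in cytokinesis, where it recruits citron kinase. It was at 111, 108 and 111 CPM in untreated libraries and at 68.6, 58.0 and 55.0 CPM after IR, and the groups were far apart. It fell by 45.02% (log2 fold change -0.86, SE 0.08, adjusted p = 0.000265, edgeR). KIF15 (ENSG00000163808, chr3:44761721-44873376, plus strand), a spindle motor that can take over from KIF11 in keeping the spindle bipolar, went from 47.3, 53.8 and 54.5 CPM to 33.0, 31.8 and 28.1 CPM. Again all IR libraries lay below the untreated ones, with a log2 fold change of -0.75 (SE 0.09, adjusted p = 0.000583, edgeR). KIF14 also ranked first with GC correction and with the length offset, but KIF15 did not keep its place, standing at -0.60 behind KIFC1 with GC correction and at -0.51, no longer called (adjusted p = 0.0545), behind KIF11 and KIF20B with the length offset.

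KIF11 (ENSG00000138160, chr10:92574105-92655395, plus strand), the motor known as Eg5 that pushes the spindle poles apart, measured 175, 172 and 202 CPM in untreated cells and 135, 119 and 113 CPM after IR. Its highest IR library was well below its lowest untreated library, and it fell by 33.2% (log2 fold change -0.58, SE 0.09, adjusted p = 0.00159, edgeR). KIFC1 (ENSG00000237649, chr6:33391823-33409896, plus strand) moves towards microtubule minus ends and gathers spindle poles and extra centrosomes. Its libraries were tightly grouped, at 123, 123 and 121 CPM untreated and 86.4, 92.5 and 88.0 CPM after IR (log2 fold change -0.46, SE 0.06, adjusted p = 0.000937, edgeR).

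The kinesin-6 motors, which organize the central spindle, all fell. KIF20B was at 97.1, 104 and 110 CPM untreated and at 78.8, 68.7 and 56.8 CPM after IR, with the IR libraries more spread than the untreated ones (log2 fold change -0.61, SE 0.11, adjusted p = 0.00319). KIF20A, which brings Aurora B to the midzone, was at 128, 132 and 125 CPM and then at 97.0, 102 and 92.5 CPM (log2 fold change -0.41, SE 0.07, adjusted p = 0.00209). Exons of BRD8 and CDC23 overlap KIF20A on the other strand, so its reads are less certain. KIF23 forms the centralspindlin complex with RACGAP1 and was the mitotic kinesin of highest TPM. It measured 263, 257 and 271 CPM untreated and 215, 209 and 181 CPM after IR (log2 fold change -0.39, SE 0.08, adjusted p = 0.00472). For all 3 genes the groups were separate.

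KIF18A, which shortens kinetochore microtubules and damps chromosome oscillation, went from 59.5, 58.2 and 65.6 CPM to 49.7, 46.9 and 42.5 CPM (log2 fold change -0.40, SE 0.08, adjusted p = 0.00566). The chromokinesins KIF22 and KIF4A bind chromosome arms. KIF22 measured 93.2, 81.9 and 86.4 CPM untreated and 63.3, 68.2 and 69.3 CPM after IR (log2 fold change -0.38, SE 0.07, adjusted p = 0.00443). KIF4A, which also limits midzone microtubules together with PRC1, measured 149, 153 and 170 CPM and then 127, 125 and 117 CPM (log2 fold change -0.35, SE 0.07, adjusted p = 0.00569). The groups were separate for these genes too. KIF4A shares 27.0% of its 31-base words with other genes, mainly KIF4B, whose own estimated counts were near 0.

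The smallest mitotic changes were those of the depolymerases KIF2A (-0.27) and KIF2C (-0.22) and of KIF18B (-0.25), which trims astral microtubules. Their calls were also the least stable. Without untreated replicate 2 the adjusted p was 0.0532 for KIF2A, 0.0728 for KIF18B and 0.0577 for KIF2C. KIF18B was also lost without untreated replicate 1 (0.0832) or IR replicate 2 (0.0664), and KIF2C without untreated replicate 1 (0.0814), untreated replicate 3 (0.0674) or IR replicate 2 (0.0626). The other 10 mitotic kinesins were called whichever library was left out. KIF2A also shares 21.5% of its 31-base words with other genes and overlaps exons of DIMT1 on the other strand.

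**Figure D4:**
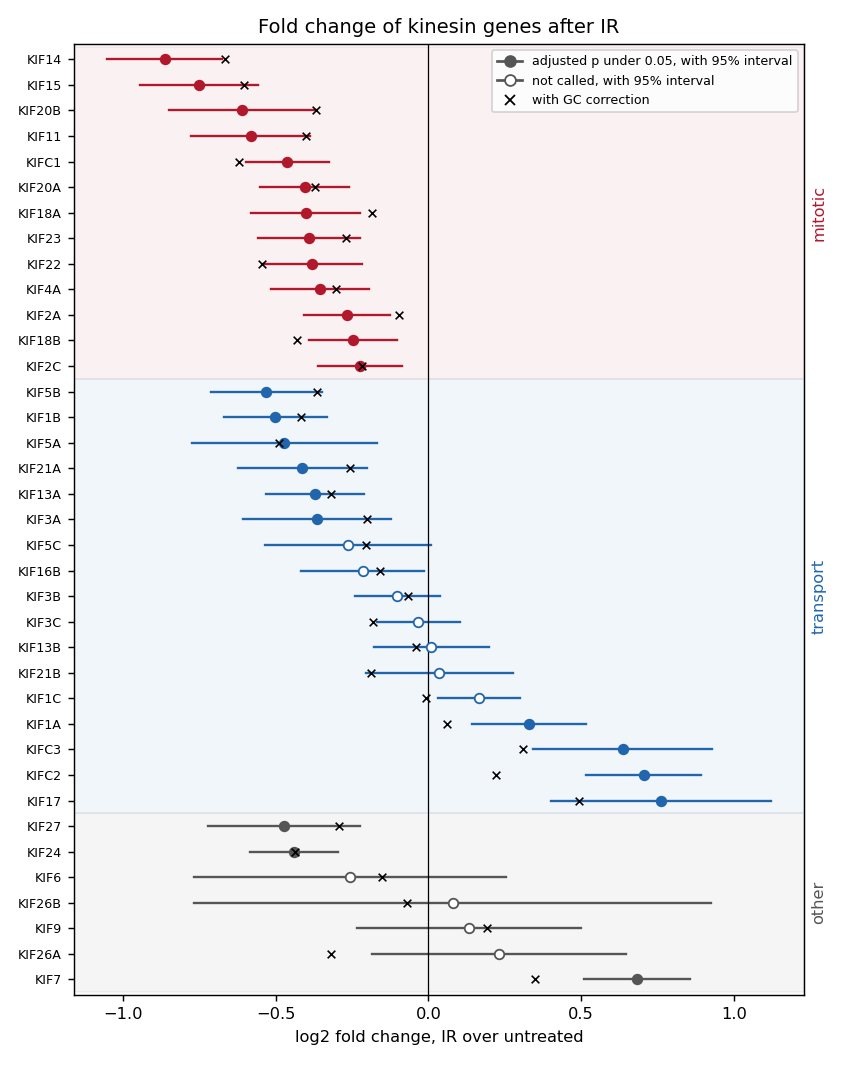
Log2 fold change of IR over untreated for the 37 tested kinesins, with 95% intervals, filled where the adjusted p was under 0.05 and open where it was not, and crosses for the values with GC correction. All 13 mitotic kinesins are filled and lie below 0, from -0.86 to -0.22, and the transport kinesins run from KIF5B at -0.53 to KIF17 at 0.76.

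Among the transport kinesins, the called falls were led by KIF5B and KIF1B. KIF5B (ENSG00000170759, chr10:32009015-32056425, minus strand), the widely expressed heavy chain of conventional kinesin, was at 497, 502 and 518 CPM untreated and at 395, 336 and 319 CPM after IR. The groups did not overlap, and it fell by 30.8% (log2 fold change -0.53, SE 0.08, adjusted p = 0.00172, edgeR). KIF1B (ENSG00000054523, chr1:10210570-10381603, plus strand), which carries mitochondria and synaptic vesicle precursors, went from 89.1, 91.6 and 88.0 CPM to 69.99, 59.7 and 60.4 CPM (log2 fold change -0.50, SE 0.08, adjusted p = 0.00159, edgeR). These sizes were within the range of the mitotic kinesins.

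KIF13A, an endosome motor, was at 67.0, 69.3 and 69.2 CPM untreated and at 55.6, 54.7 and 48.9 CPM after IR (log2 fold change -0.37, SE 0.07, adjusted p = 0.00464). KIF21A, which slows microtubule growth, was at 84.8, 90.3 and 87.5 CPM and then at 74.9, 66.2 and 56.8 CPM (log2 fold change -0.41, SE 0.10, adjusted p = 0.0102). Both were separate between groups. The remaining called falls were of KIF5A (-0.47, adjusted p = 0.0261), a neuronal heavy chain of conventional kinesin, and KIF3A (-0.36, adjusted p = 0.0297), a subunit of heterotrimeric kinesin-2. Each of these was lost when any one of the untreated libraries was left out, with adjusted p between 0.0598 and 0.086 for KIF5A and between 0.0675 and 0.102 for KIF3A, and KIF5A also without IR replicate 2 (0.0636). KIF5A overlaps exons of DCTN2 on the other strand.

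The 4 transport kinesins called higher were KIFC2, KIFC3, KIF17 and KIF1A. KIFC2 (ENSG00000167702, chr8:144466043-144474202, plus strand), a minus-end motor best known from neurons, rose from 35.9, 37.4 and 43.0 CPM to 61.0, 60.9 and 67.4 CPM, without overlap (log2 fold change 0.70, SE 0.09, adjusted p = 0.000645). It shares 16.6% of its 31-base words with other genes and overlaps exons of FOXH1. KIFC3 (ENSG00000140859, chr16:57758217-57863053, minus strand), another minus-end motor, was at 56.8, 62.4 and 57.1 CPM and then at 77.1, 81.5 and 114 CPM, the last value being IR replicate 3 (log2 fold change 0.64, SE 0.13, adjusted p = 0.00657). Without that library its log2 fold change was 0.42, still called.

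KIF17 (ENSG00000117245, chr1:20664014-20718017, minus strand), a kinesin-2 homodimer of dendrites and cilia, was expressed at a low level, with 3.62, 4.24 and 3.32 CPM untreated and 6.44, 5.66 and 6.82 CPM after IR (log2 fold change 0.76, SE 0.16, adjusted p = 0.00726). KIF1A, the motor of synaptic vesicle precursors, measured 24.9, 26.9 and 24.0 CPM untreated and 30.3, 30.5 and 34.4 CPM after IR (log2 fold change 0.33, SE 0.08, adjusted p = 0.0157). All IR libraries of both genes were above all untreated ones. The KIF1A call was lost without untreated replicate 1 (adjusted p = 0.0611) or 3 (0.0563), and its direction turned to -0.11 (adjusted p = 0.741) when the fit accounted for the mean length of the transcripts in each library.

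KIF1C and KIF3B were the uncalled transport kinesins of highest count. KIF1C, a motor of Golgi-derived vesicles, was at 253, 251 and 245 CPM untreated and 268, 286 and 286 CPM after IR, a separate but small difference that missed the threshold (log2 fold change 0.17, SE 0.06, adjusted p = 0.0617). KIF3B, the partner of KIF3A in kinesin-2, was at 124, 129 and 130 CPM and then at 125, 116 and 117 CPM, with overlap (log2 fold change -0.10, SE 0.06, adjusted p = 0.24). The other uncalled transport kinesins were KIF5C (-0.26), KIF16B (-0.22), KIF3C (-0.03), KIF13B (0.01) and KIF21B (0.04).

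Of the other kinesins, KIF7 was called higher and KIF24 and KIF27 lower. KIF7 (ENSG00000166813, chr15:89608789-89663086, minus strand), the Hedgehog regulator at the tip of the primary cilium, was at 20.8, 21.2 and 20.6 CPM in untreated cells and at 31.6, 32.9 and 35.8 CPM after IR, a wide gap (log2 fold change 0.68, SE 0.08, adjusted p = 0.000526). Exons of TICRR overlap it on the other strand. Its close relative KIF27 went the other way, from 14.2, 14.8 and 16.8 CPM to 11.96, 11.2 and 10.03 CPM (log2 fold change -0.47, SE 0.11, adjusted p = 0.0113). KIF24 (ENSG00000186638, chr9:34252380-34329268, minus strand), a depolymerase that holds back the growth of cilia, was at 51.0, 52.7 and 49.8 CPM and then at 38.0, 38.1 and 37.2 CPM (log2 fold change -0.44, SE 0.06, adjusted p = 0.00141). Both were separate between groups, and exons of UBAP1 overlap KIF24 on the other strand.

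The uncalled members of this set were expressed at low levels. KIF26A, a kinesin that lacks ATPase activity, was at 6.15, 8.83 and 8.80 CPM untreated and 9.29, 7.24 and 11.2 CPM after IR (log2 fold change 0.23, SE 0.19, adjusted p = 0.372). KIF9, a motor of motile cilia, was at 5.82, 4.10 and 5.03 CPM and then at 5.57, 5.28 and 5.49 CPM (log2 fold change 0.13, SE 0.17, adjusted p = 0.57). The groups overlapped for both, as they did for KIF6 and KIF26B. The interval for KIF26B ran from -0.77 to 0.93, so little could be seen at 7 to 38 counts per library.

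By sequence family, the called members of kinesin-1 (2 of 3), kinesin-6 (3 of 3), kinesin-8 (2 of 2) and kinesin-13 (3 of 3) were lower only. So were the families with a single tested member, kinesin-5 (KIF11), kinesin-10 (KIF22) and kinesin-12 (KIF15). Over all tested genes, 14.5% were called lower and 15.5% higher. The calls of KIF5A, KIF18B, KIF2A and KIF2C were lost when certain single libraries were left out, and that of KIF2A also with GC correction. With the length offset these calls were lost, as were those of KIF5B (adjusted p = 0.051, edgeR), KIF15 (0.0545) and KIF22 (0.0988). Kinesin-1, kinesin-10 and kinesin-12 then had no called member. Kinesin-14 held both directions, with the mitotic KIFC1 lower and the transport motors KIFC2 and KIFC3 higher, and kinesin-2 did so too, with KIF3A lower and KIF17 higher among 4 tested. The KIF3A call was lost when any single untreated library was left out, with GC correction (adjusted p = 0.105, edgeR) and with the length offset (0.121). The length offset also lost the calls of KIF17 (0.051) and KIFC3 (0.0605), and GC correction that of KIFC2 (0.0708). Neither member of kinesin-9 or of kinesin-11 was called. Kinesin-3, the largest family with 7 tested members, held the mitotic KIF14, the lower KIF1B and KIF13A and the higher KIF1A. Kinesin-4 held KIF4A, KIF21A and KIF27 lower and KIF7 higher. In these families, KIF13A (adjusted p = 0.332, edgeR), KIF1A (0.741), KIF21A (0.0676) and KIF27 (0.11) were not called with the length offset.

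The GC content of the transcripts moved with the direction of change. The 5 kinesins called higher were among the 6 tested with a GC content of 60% or more, and all 21 called lower were among the 31 below 60%. The same trend ran through all tested genes, whose median log2 fold change was -0.19 for the 1658 genes with 35 to 40% GC and 0.31 for the 1562 genes with 60 to 65% GC. Mitotic kinesins had a median GC content of 41.9% and transport kinesins of 50.9%. KIFC1, KIF22 and KIF18B fell in spite of GC contents of 56.9, 57.2 and 57.9%, where the median of all genes between 55 and 60% was 0.16.

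With a correction for the GC trend of each library, 12 of 13 mitotic kinesins were called lower and 0 higher, and their median was -0.37, where 13.1% of all tested genes were called lower and 11.1% higher. The transport kinesins were then 6 lower and 2 higher (KIFC3 and KIF17), and KIF7 was the other kinesin called higher. In all, 22 of the 26 called kinesins kept their call and direction. The calls of KIF2A (log2 fold change -0.10, adjusted p = 0.209), KIF3A (-0.20, 0.105), KIFC2 (0.22, 0.0708) and KIF1A (0.06, 0.521) were lost, and KIF3C became called lower (-0.18, adjusted p = 0.0361). The falls of KIFC1, KIF22 and KIF18B became larger, at -0.62, -0.55 and -0.43, and those of the other 10 mitotic kinesins became smaller, such as KIF14 at -0.67, KIF11 at -0.40, KIF20B at -0.37 and KIF18A at -0.19.

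**Figure D5:**
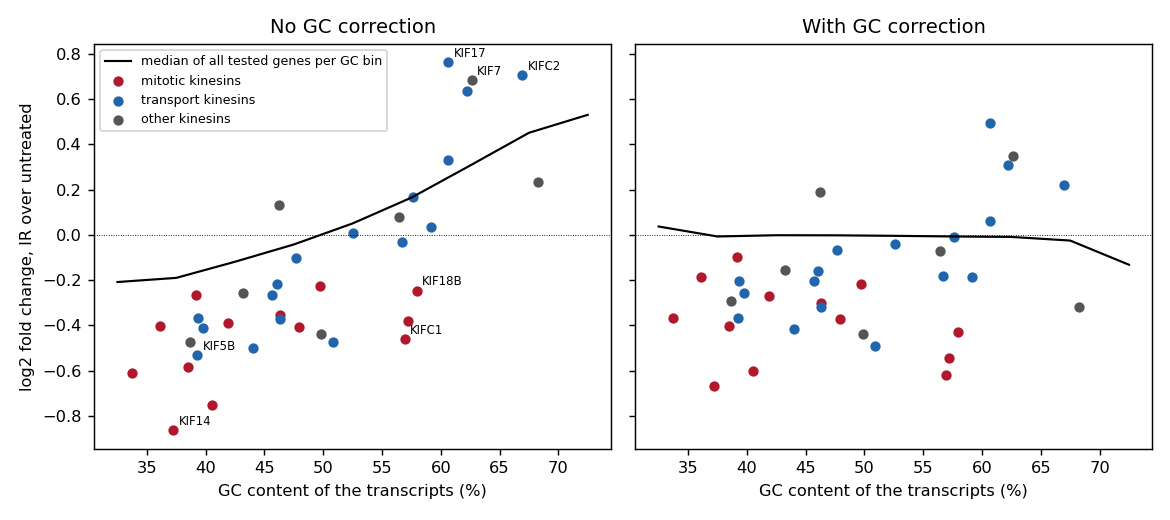
Log2 fold change of IR over untreated against the GC content of the transcripts for the 37 tested kinesins, without (left) and with (right) GC correction, and the median of all tested genes in GC bins as a black line. The line climbs from -0.19 at 35 to 40% GC to 0.31 at 60 to 65% on the left and is nearly flat on the right, where the 13 mitotic kinesins all remain below 0.

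When the fit instead carried the mean length of each gene's transcripts as an offset, 11 kinesins were called lower and 2 higher, where 6.11% of all tested genes were called lower and 5.84% higher. The 13 mitotic kinesins were all below 0, with 8 called and a median of -0.36. KIF1B and KIF13B were then the transport kinesins called lower, KIF13B with a log2 fold change of -0.45 (adjusted p = 0.0425) against 0.01 without the offset.

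Genes of proteins that work with kinesins were then counted. From a list of 18 spindle and midzone proteins, all of them tested, 14 were called lower and 0 higher, with a median log2 fold change of -0.36, against 14.5% lower and 15.5% higher among all tested genes. The list, and the genes called lower, include CENPE, which is itself a kinesin by its motor domain but carries no KIF symbol. KNSTRN, HMMR, TACC3 and MAPRE1 were not called. ASPM, which focuses spindle poles, changed by -0.80 (adjusted p = 0.000974), the RhoA activator ECT2 by -0.47 (0.00115), the microtubule polymerase CKAP5 by -0.54 (0.00145) and the microtubule stabilizer CKAP2 by -0.55 (0.00206). With GC correction 15 of the 18 were called lower, against 13.1% of all tested genes.

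Of 15 tested kinesin light chains and cargo adaptors, 2 were called lower and 2 higher, with a median of 0.03, shares close to the 14.5% and 15.5% of all tested genes. The adaptor MAPK8IP3 rose (0.45, adjusted p = 0.00732) and so did the scarce light chain KLC3, which lay between 0.733 and 1.65 CPM untreated and between 1.91 and 2.68 CPM after IR (0.98, adjusted p = 0.0388). TRAK2, which links kinesin to mitochondria, fell (-0.29, adjusted p = 0.0235), as did FYCO1 (-0.25, adjusted p = 0.0499), an adaptor of late endosomes and autophagosomes. These calls depended on single libraries and on the fit. Of the 6 fits that each left out 1 library, KLC3 and FYCO1 were called in 1 each (adjusted p up to 0.14 and 0.202) and TRAK2 in 2 (up to 0.0797), and MAPK8IP3 was called in all 6 but not with GC correction (adjusted p = 0.222). With GC correction 3 were called lower and 0 higher, where 13.1% of all tested genes were lower and 11.1% higher. The main light chains KLC1 and KLC2 had values of 0.02 and 0.10 and were not called. KLC2 turned direction with GC correction and was then called lower (-0.26, adjusted p = 0.0109).

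Of 18 tested subunits of dynein and dynactin, the minus-end motor complex of interphase transport that also works in mitosis, 4 were called lower and 0 higher, with a median of -0.02, where 14.5% of all tested genes were lower and 15.5% higher. These were DYNLL2 (-0.26, adjusted p = 0.0109), DYNC1LI2 (-0.28, 0.0149), DCTN4 (-0.30, 0.018) and DYNC1H1 (-0.23, 0.0368). DYNC1H1 turned to 0.34 with the length offset (adjusted p = 0.102), and it and DCTN4 were each called in 3 of the 6 fits that left out 1 library (adjusted p up to 0.157 and 0.0897). DYNC1LI2 was called in 5 of these fits and DYNLL2 in 6. GC correction gave 3 lower and 1 higher, with DCTN4 lost (adjusted p = 0.103). In that fit, 13.1% of all tested genes were lower and 11.1% higher.

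Transcript usage, the share of each transcript in its gene, was tested in 34 kinesin genes with at least 2 retained transcripts. KIF3A was the 1 kinesin called (edgeR, adjusted p = 0.0203), where 2.67% of all tested genes were called. The call rested on KIF3A-203, a coding transcript listed at 0 in all untreated libraries and at 1.31, 0.711 and 4.18 CPM after IR, at most 3.43% of the gene's TPM. It was kept without IR replicate 1 (adjusted p = 0.0412) and lost without any other library, with adjusted p between 0.0737 and 0.318. On simulated data with the spread seen between transcripts, 4 of 196 genes with a 4-fold switch were recovered and 71 unchanged genes were called, so neither this call nor the absence of others is firm.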

How the data were processed

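RNA was extracted with TRIzol and sequenced with Illumina TruSeq libraries (polyA RNA per the labels, a total RNA kit per the study's methods). The authors trimmed reads with fastp and deposited estimated counts and TPM per transcript, made with kallisto against GENCODE release 37 (GRCh38). Here, 158711 of 161171 transcripts, holding 98.2 to 98.5% of the counts, were matched to GENCODE release 44. Estimated counts were summed per gene, rounded and tested with edgeR 4.0.16 (filterByExpr, TMM, glmQLFit, glmQLFTest, R 4.3.3), with Benjamini-Hochberg adjustment over all 14323 tested genes. The biological coefficient of variation was 0.0931. CPM are TMM-normalized. GC correction used an offset from a spline with 6 degrees of freedom per library. DESeq2 1.42.0, other filters and each library left out were alternatives. On data simulated for IR against untreated over 14229 genes, 80% of changes of 1 and 51% of changes of 0.5 (log2) were recovered, and 15 unchanged genes were called. The simulation changed 200 genes, whereas 4307 were called in the data, so these shares need not hold for the data. Usage was tested with diffSpliceDGE. Estimated counts spread ambiguous reads over overlapping or similar genes. The members, roles and gene lists were chosen with earlier results of these data known, so no p is adjusted over a list. Library values were given for up to 10 mitotic, 8 transport and 4 other called members by lowest p, for called members against most of their role, and for the 2 uncalled transport and 2 uncalled other members of highest count. Up to 4 called genes of lowest p were named per list.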

Additional observations from a re-analysis of the deposited data

How the results depend on the processing

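Of 554 single-gene values under the alternatives, 491 kept their direction and their side of the threshold, 43 lost the call, 1 gained it and 19 turned direction. The DESeq2 Wald test, DESeq2 size factors, the edgeR likelihood ratio test and a filter of at least 10 counts in every library changed no call of a tested kinesin. Leaving out 1 library at a time gave 16 to 21 kinesins lower and 4 to 5 higher. The same fits called 1244 to 2284 of all tested genes lower and 1295 to 2114 higher, with 14495 to 14573 genes tested. Medians were -0.45 (without IR replicate 1) to -0.38 for mitotic and -0.15 to -0.0837 for transport kinesins. Between 0 and 1 kinesins were called for usage, which was KIF3C without untreated replicate 1 and KIF21A without untreated replicate 3 in place of KIF3A. With length offset, 11 kinesins were lower and 2 higher, 8 mitotic kinesins lower, 2 transport kinesins lower and 1 higher, 1 other kinesin lower, and the transport median was -0.19. With GC correction, 3 kinesins were higher, 2 of them transport kinesins, whose median was -0.18. Limited to kinesin-1, kinesin-2 and kinesin-3, transport kinesins called higher numbered 2 and the median was -0.22.

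Values that turned direction were KIF1A with length offset (-0.11), KIF1C with GC correction (-0.0091), KIF26A with GC correction (-0.32), KIF13B with GC correction (-0.0417), with length offset (-0.45) and over left-out libraries (-0.0318 to 0.05), KIF21B with GC correction (-0.19), with length offset (-0.0919) and over left-out libraries (-0.0152 to 0.0916), and KIF26B with GC correction (-0.0714), with length offset (-0.14) and over left-out libraries (-0.21 to 0.50). The cause was not tested.

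The correlations of same-numbered deviations were -0.0099, -0.0307 and -0.0659, so no shared replicate effect was seen. With 3 libraries per group, these values cannot settle whether the libraries were paired. With the replicate block, 19 kinesins were called lower and 5 higher, where 1624 of 14323 tested genes were lower and 1727 higher. KIF18B (adjusted p = 0.051) and KIF2C (0.0579) were lost, and 0 kinesins were called for usage. With GC correction and the replicate block together, 17 kinesins were lower, 11 of them mitotic (KIF2A and KIF18A, adjusted p = 0.082, being lost) and 5 transport kinesins, 2 kinesins were higher, 1 of them a transport kinesin, 1 other kinesin was lower, the transport median was -0.18, and KIF1C (-0.0092), KIF13B (-0.0406), KIF21B (-0.19), KIF26A (-0.32) and KIF26B (-0.0054) were below 0. Over all 14323 tested genes, this combined fit called 1645 lower and 1402 higher. Depth limits chiefly KIF26B, KIF6 and KIF17, with 7 to 308 counts per library.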

Other observations

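STARD9 and CENPE are kinesins by their motor domain but carry no KIF symbol, and were not counted among the members. CENPE was counted in the list of spindle and midzone proteins above. CENPE, which moves chromosomes to the spindle equator, was at 141, 127 and 187 CPM in untreated libraries and at 110, 90.1 and 69.8 CPM after IR, without overlap (log2 fold change -0.76, SE 0.17, adjusted p = 0.00889, edgeR). STARD9, a centrosomal motor, was at 32.7, 38.0 and 33.8 CPM and then at 28.7, 27.8 and 25.9 CPM, also without overlap (log2 fold change -0.35, adjusted p = 0.0126).

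KIF3C, chosen after its values were seen, was level as a gene in the fit without GC correction (-0.03), though called lower with it. The estimated counts of its transcripts were not level across libraries. The coding transcript KIF3C-201 was at 106, 103 and 100.1 CPM in untreated libraries, whereas the IR libraries gave 47.6, 50.04 and 109 CPM, in replicate order. KIF3C-203, annotated as a target of nonsense-mediated decay, was at 2.84, 0 and 0 CPM and then at 54.9, 51.2 and 2.08 CPM. IR replicate 3 thus resembled the untreated libraries and not the other IR libraries, and the gene was not called for usage (adjusted p = 0.209).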
